A study of Arabidopsis thaliana with 4 samples.

Results

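The *upf3-1* mutant, which carries a T-DNA insertion in *UPF3*, was compared with its wild type (WT), both of the Arabidopsis accession Col-0. The members are the annotated genes, those with a TAIR locus identifier, that have a value for this pair of libraries and reach 1 FPKM in the *upf3-1* library, the WT library, or both. FPKM counts sequenced fragments, scaled by the length of the transcript and by the mapped fragments of the library. Of 21284 annotated genes in the series, 19987 have a value for the pair, and 18863 of these pass the filter. Of the remaining annotated genes of the pair, 1124 stayed under 1 FPKM in both libraries, and 1297 annotated genes of the series have no value for it.

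Seedlings of *upf3-1* (T-DNA line SALK_025175) and of WT were grown for 8 days at 23°C on half-strength medium, with a day of 16 h and a night of 8 h, and harvested at ZT16, the end of the light period. About 50 to 100 whole seedlings were pooled for each library. Each genotype is 1 line and 1 library, so no difference below has a replicate check, and none was tested. A gene was called up or down at a fold of 2 or more. The series also has a *upf1-5 upf3-1* double mutant library and a *upf1-5* library (T-DNA line SALK_112922), grown and harvested in the same way. In that pair both libraries carry *upf1-5* and differ by *upf3-1*, and it shares no library with the pair described here, so its values are set beside the main ones.

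UPF3 and UPF1 belong to the machinery of nonsense-mediated mRNA decay (NMD). This pathway degrades mRNAs on which translation ends too early or far from the 3′ end. UPF3 binds the exon junction complex, which marks splice sites on the mRNA, and UPF1 is the RNA helicase that starts the decay. Typical NMD targets have an exon junction well downstream of the stop codon, a long 3′-UTR, or an upstream open reading frame. In Arabidopsis, NMD also limits the mRNAs of several immune receptors.

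*UPF3* (AT1G33980, chr1:12351566-12355173 in TAIR10.1) had 6.35 FPKM in *upf3-1* and 20.8 FPKM in WT, so it was 3.27-fold lower in the library labelled *upf3-1*. It was also low in the double mutant, with 7.099 FPKM in *upf1-5 upf3-1* and 33.7 FPKM in *upf1-5*. *UPF1* (AT5G47010) had 30.6 FPKM in *upf3-1* and 23.9 FPKM in WT. The reference genes of the study hardly differed. *PP2AA3*, a phosphatase subunit gene, had 42.2 FPKM in *upf3-1* and 41.8 FPKM in WT, and the *SAND* gene AT2G28390 had 19.8 FPKM in *upf3-1* and 21.7 FPKM in WT. Among the 8 measured neighbours of *UPF3* within 25 kb that pass the filter, 7 differed by less than 2-fold. The exception was *TAR3* (AT1G34040), 19086 bases away, with 22.6 FPKM in *upf3-1* and 3.64 FPKM in WT.

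Of the 18863 genes, 2577 were up (13.7%) and 1261 were down (6.69%) in *upf3-1*, so 67.1% of the changed genes were higher in the mutant. At a 4-fold threshold 910 genes were up and 190 were down. Most genes were close to WT, and 11490 (60.9%) differed by less than 1.5-fold. The up-regulated genes were expressed at a low level in WT, with a median of 7.12 FPKM in *upf3-1* and 2.07 FPKM in WT. The down-regulated genes had a median of 7.29 FPKM in *upf3-1* and 19.9 FPKM in WT. For 808 of the up-regulated and 213 of the down-regulated genes, the lower library was under 1 FPKM, where a value rests on few fragments and a fold is least certain.

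**Figure D1:**
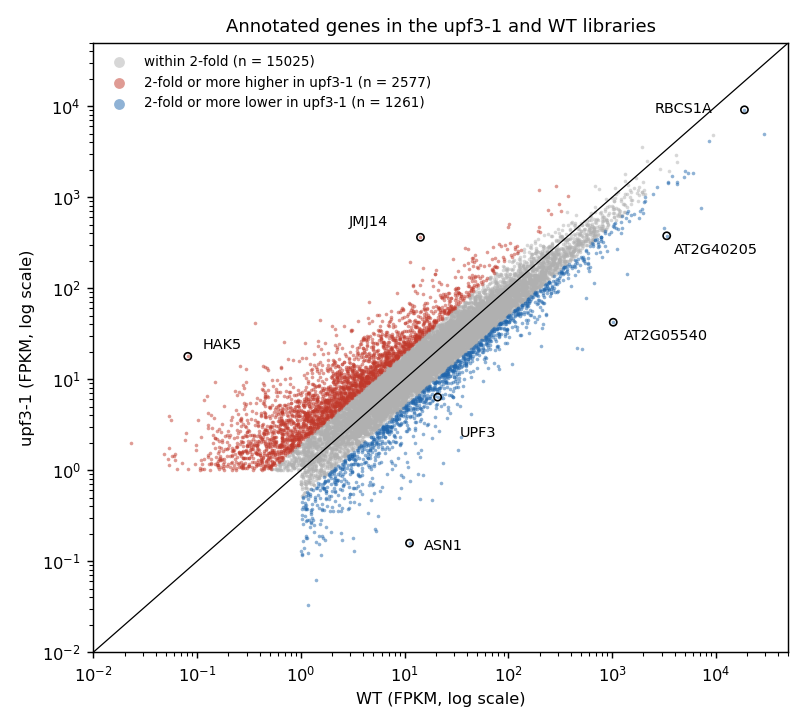
Each point is 1 annotated gene, with its FPKM in the *upf3-1* library on the vertical axis and in the WT library on the horizontal axis, both on a log scale. The 2577 red points lie 2-fold or more above the line of equal values and the 1261 blue points 2-fold or more below it. The red points gather at low FPKM, and above 1000 FPKM most points lie below the line.

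The direction of change followed abundance. When the genes were split into 5 classes by mean FPKM, the lowest class, with a median of 2.38 FPKM, held 1292 genes up and 387 down, and its median log2 ratio was 0.45. The highest class, with a median of 86.7 FPKM, held 172 genes up and 370 down, and its median log2 ratio was −0.32. Summed over all genes, *upf3-1* had 778969 FPKM and WT had 1.02364e+06 FPKM. Over all genes the median log2 ratio was −0.03, and the 75th percentile was 34.6 FPKM in *upf3-1* and 36.5 FPKM in WT. The median of the abundance class is therefore given below beside the photosystem, Calvin cycle, ribosomal protein, root hair, histone, and jasmonate genes. For LEA, flavonoid, and mitotic genes it was 0.10, and the group medians were 1.82, 1.32, and 0.98. It was −0.01 for triterpene cluster, Casparian strip, extensin, and class III peroxidase genes, with group medians of 2.63, 1.53, 1.48, and 1.55.

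Root hair markers were higher in *upf3-1*, and markers of green tissue were mostly lower. All 6 root hair markers (*COBL9*, *EXPA7*, *EXPA18*, *RHD6*, *RSL4*, *PRP3*) were up, with a summed level of 91.0 FPKM in *upf3-1* and 19.4 FPKM in WT. The 3 green tissue markers (*RBCS1A*, *CAB1*, *LHCB2.1*) summed to 10699 FPKM in *upf3-1* and 22295 FPKM in WT. The 4 guard cell markers summed to 46.5 FPKM in *upf3-1* and 68.9 FPKM in WT, and the companion cell marker *SUC2* had 39.7 FPKM in *upf3-1* and 58.0 FPKM in WT. Of 8 embryo and seed markers only *CRU3* has a value, with 0.904 FPKM in *upf3-1* and 0.266 FPKM in WT, and neither pollen marker has one. In whole seedlings, more or fewer cells of a type and more or less RNA per cell cannot be told apart. Whether the share of root in the pools moved with the groups below was not tested.

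Genes that the dark and sugar starvation induce made up 7 of the 15 strongest falls. In such plants the kinase SnRK1 and its bZIP partners turn on genes that break down amino acids, lipids, and sugars. Of 35 listed genes of this kind 32 were measured, and 22 of them were down (68.8%) and 0 up, with a median log2 ratio of −1.44. Over all genes 6.69% were down and 13.7% up. The list was chosen with earlier results of these data known, so its count is no independent evidence. The measured genes had a median of 12.9 FPKM in *upf3-1* and 27.3 FPKM in WT. The promoter stretches of 4 down-regulated members are shown because this group moved together and because they hold TATCCA, the sequence of a sugar response element known from cereal amylase promoters. Each ends at the base before the RefSeq gene start in TAIR10.1 and is written on the strand of the gene, with TATCCA or its complement TGGATA in capitals. They are *ASN1* (chr3:17441432-17441551, minus strand), *BT2* (chr3:17910739-17910858, minus strand), *AKINBETA1* (chr5:7205357-7205476, plus strand), and *STP1* (chr1:3777116-3777235, plus strand).
ASN1: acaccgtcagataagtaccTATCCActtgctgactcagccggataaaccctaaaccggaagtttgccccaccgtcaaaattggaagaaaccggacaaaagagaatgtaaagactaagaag
BT2: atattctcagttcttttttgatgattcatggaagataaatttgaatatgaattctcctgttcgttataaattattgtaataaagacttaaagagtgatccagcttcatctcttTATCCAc
AKINBETA1: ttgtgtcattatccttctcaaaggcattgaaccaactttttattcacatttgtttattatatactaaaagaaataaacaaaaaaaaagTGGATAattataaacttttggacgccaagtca
STP1: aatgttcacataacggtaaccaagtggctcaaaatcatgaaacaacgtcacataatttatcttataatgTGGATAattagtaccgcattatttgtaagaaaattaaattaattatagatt
In the 250 bases before the gene start, TATCCA was found on either strand in 11 of the 32 starvation genes (34.4%) and in 2642 of 18640 genes with such a stretch (14.2%). It was found in 9 of the 22 that were down and in 2 of the 10 that were not. Nuclear photosystem and light-harvesting genes had a similar share, 15 of 48 (31.3%). The same search for CACGTG, the G-box core, found 2 of the 32. Such a match is a description of the sequence and says nothing of a bound factor.

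*ASN1*, which encodes the asparagine synthetase used to store nitrogen in the dark, had 0.158 FPKM in *upf3-1* and 11.1 FPKM in WT and was 70.5-fold lower. *SEN1*, a senescence-associated gene also known as *DIN1*, had 1.68 FPKM in *upf3-1*, against 32.98 FPKM in WT. *AKINBETA1*, a regulatory subunit of SnRK1 itself, was 19.7-fold lower, with 1.18 FPKM in *upf3-1* and 23.4 FPKM in WT. Of the dormancy-associated genes, AT2G33830 had 21.8 FPKM in *upf3-1*, against 456 FPKM in WT, and *DYL1* had 81.5 FPKM in *upf3-1*, against 191 FPKM in WT. AT3G15450, described as an aluminum-induced protein, was 23.9-fold lower, with 21.4 FPKM in *upf3-1* and 511 FPKM in WT. *BT2*, a BTB and TAZ domain scaffold protein, was the most abundant member in WT, with 114 FPKM in *upf3-1* and 665 FPKM in WT.

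Enzymes that degrade amino acids and sugar derivatives fell as well. *THA1*, a threonine aldolase, was 29.8-fold lower, with 0.477 FPKM in *upf3-1* and 14.2 FPKM in WT. The branched-chain pathway was represented by the aminotransferase *BCAT2* with 1.14 FPKM in *upf3-1* and 8.01 FPKM in WT, by the dehydrogenase subunits AT1G21400 with 4.300 FPKM in *upf3-1* and 27.5 FPKM in WT and *DIN4* with 12.03 FPKM in *upf3-1* and 30.7 FPKM in WT, and by the carboxylase subunit *MCCA* with 8.21 FPKM in *upf3-1* and 19.3 FPKM in WT. *ERD5*, a proline dehydrogenase, had 32.2 FPKM in *upf3-1*, against 157 FPKM in WT. The inositol oxygenases *MIOX2* and *MIOX4* were 8.78-fold and 22.7-fold lower. *DIN10*, which acts on raffinose-type sugars, had 40.3 FPKM in *upf3-1*, against 214 FPKM in WT. The sugar transporter *STP1* was 2.46-fold lower. The other 10 members missed the threshold. Among these, *GDH2*, a glutamate dehydrogenase, had 194 FPKM in *upf3-1*, against 148 FPKM in WT, and *EXL2* had 73.4 FPKM in *upf3-1*, against 47.99 FPKM in WT, and they were the only members of the list with the higher value in *upf3-1*.

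**Figure D2:**
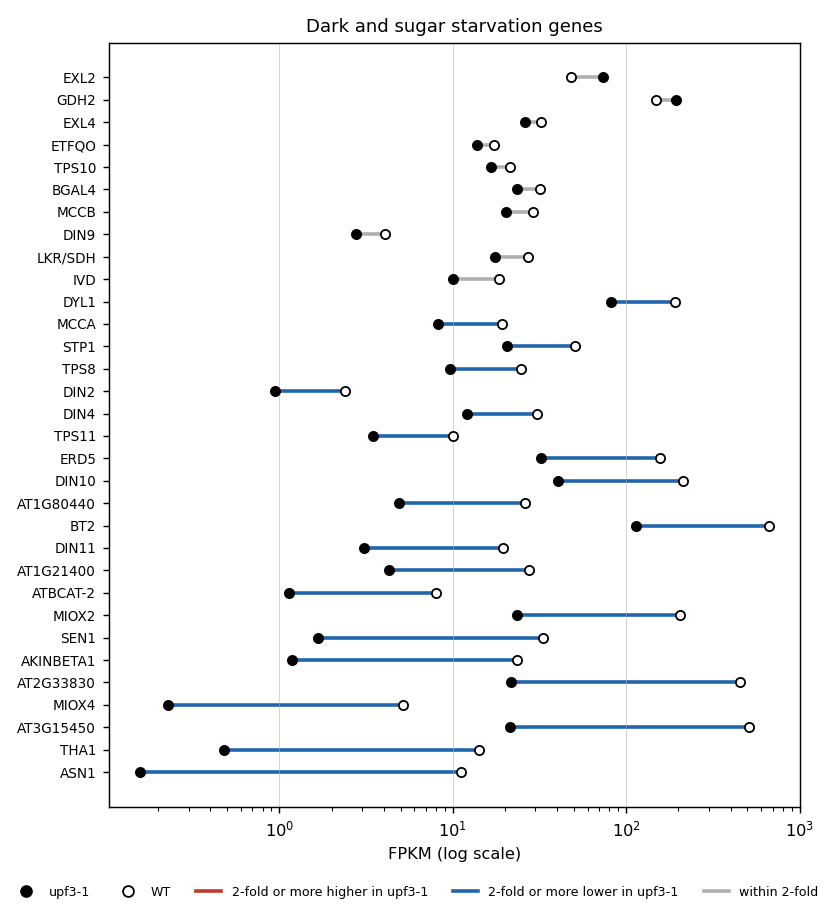
FPKM on a log scale of the 32 measured dark and sugar starvation genes, with *upf3-1* as filled circles, WT as open circles, and 1 library each. The bar between them is blue for the 22 genes that were 2-fold or more lower in *upf3-1* and grey for the other 10. Only *EXL2* and *GDH2* have the filled circle on the right.

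Outside this list, several very abundant or small genes were among the 15 strongest falls. AT2G05540, a glycine-rich protein gene, ranked first and had 42.3 FPKM in *upf3-1* and 1024 FPKM in WT. *GRP3S*, a glycine-rich wall protein gene, had 757 FPKM in *upf3-1*, against 7255 FPKM in WT. A ribosomal protein L41 gene, AT2G40205, had 377 FPKM in *upf3-1* and 3354 FPKM in WT, and its gene span is 448 bases. The uncharacterized AT5G66053 spans 147 bases and had 142 FPKM in *upf3-1*, against 1401 FPKM in WT. The defensin gene *PDF1.3* was 39.03-fold lower and the defensin-like AT3G59930 31.7-fold lower. Of 78 genes that span at most 500 bases, 12 were up and 23 down (29.5% down), so short genes were called down more often than the 6.69% over all genes.

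Photosynthesis genes were lower as a group. Of 49 nuclear genes for photosystem and light-harvesting proteins, 14 were down and 4 up, and their median log2 ratio of −0.74 compares with −0.32 in their abundance class. *LHB1B1*, a light-harvesting chlorophyll protein of photosystem II, had 78.6 FPKM in *upf3-1* and 565 FPKM in WT. *PSBR*, a photosystem II subunit gene, had 1863 FPKM in *upf3-1*, against 5422 FPKM in WT. For the photosystem I subunit *PSAE-2* the values were 243 FPKM in *upf3-1* and 691 FPKM in WT. One light-harvesting gene went the other way, since *LHCB2.1* had 71.7 FPKM in *upf3-1* and 32.6 FPKM in WT. Members of this family are close in sequence, and the split of shared fragments between them is uncertain.

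All but 1 of the 18 Calvin cycle genes were lower in *upf3-1*, and 6 passed the threshold, with a median log2 ratio of −0.90, against −0.32 in their abundance class. The 4 genes for the small subunit of Rubisco, which fixes CO2, are near-identical copies. *RBCS1A* had 9141 FPKM in *upf3-1* and 18832 FPKM in WT, and *RBCS1B* had 1682 FPKM in *upf3-1* and 4879 FPKM in WT. *FBA2*, an aldolase, had 458 FPKM in *upf3-1*, against 1081 FPKM in WT, and *PGK1*, a phosphoglycerate kinase, had 533 FPKM in *upf3-1*, against 1216 FPKM in WT. The exception was *TKL-2*, a transketolase gene of low level, with 18.7 FPKM in *upf3-1* and 9.99 FPKM in WT. Of 12 genes for chlorophyll synthesis, 1 was down and 0 up. That gene, *ATG4*, encodes chlorophyll synthase and had 87.8 FPKM in *upf3-1* and 183 FPKM in WT. Chloroplast-encoded genes summed to 5679 FPKM in *upf3-1* and 32194 FPKM in WT. Most of that difference came from *PSBM*, a short photosystem II gene, with 4965 FPKM in *upf3-1* and 28747 FPKM in WT. Of the 24 measured, 7 were down and 6 up. The labels name a kit for polyadenylated RNA and the methods one for total RNA, so the capture of these transcripts is uncertain.

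Genes for cytosolic ribosomal proteins were mostly lower by less than the threshold. Of 209 measured, 6 were down and 5 up, and 191 had the lower value in *upf3-1*. Their median log2 ratio was −0.57, against −0.32 in their abundance class, and their median level was 230 FPKM in *upf3-1* and 362 FPKM in WT. The site II motifs TGGGCC and TGGGCT, which differ in the last letter and are known from promoters of genes for growth, were found on either strand in 56.0% and 45.5% of these genes. Over all genes the shares were 16.7% and 14.3%. The telo-box AAACCCTA was found in 18.7%, against 3.51% over all genes. Among the few members that rose, *RPS23A* had 4.31 FPKM in *upf3-1* and 0.652 FPKM in WT and *RPP0A* had 33.4 FPKM in *upf3-1*, against 12.2 FPKM in WT. Of 57 proteasome genes 1 was up, of 52 splicing factor genes 1 was up, and 0 of either group were down. Translation factor genes numbered 57, with 3 up and 2 down.

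**Figure D3:**
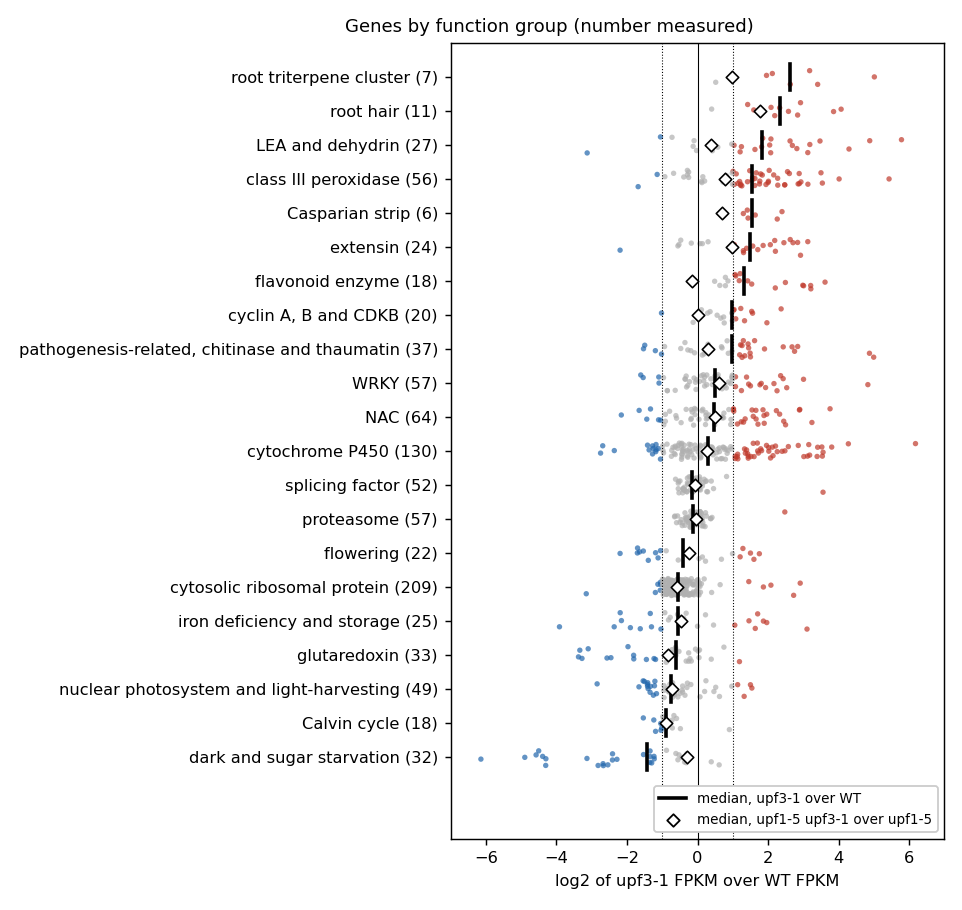
Each point is 1 gene of a function group, placed by the log2 of its *upf3-1* FPKM over its WT FPKM, red at 2-fold or more higher, blue at 2-fold or more lower, and grey between the dotted lines. Black bars mark the group median and open diamonds the median of the same group in *upf1-5 upf3-1* over *upf1-5*. Root groups stand at the top, with a median of 2.63 for the triterpene cluster genes, and the starvation genes at the bottom, with a median of −1.44. One cytochrome P450 gene, AT2G12190, lies outside the axis.

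Genes that act in root hairs were nearly all higher. Root hairs are outgrowths of single epidermal cells, and bHLH factors of the RHD6 and RSL type start and drive their growth. The list holds all 6 root hair markers above, so the 2 counts are largely the same observation. Of its 11 genes, 10 were up and 0 down, with a median log2 ratio of 2.33, against 0.45 in their abundance class. In that class 1292 of 3776 genes were up. *RHD6*, which starts hair formation, had 6.58 FPKM in *upf3-1* and 0.454 FPKM in WT, and *RSL2*, which acts after it, had 5.45 FPKM in *upf3-1* and 0.324 FPKM in WT. *RSL4* had 4.67 FPKM in *upf3-1*, against 1.74 FPKM in WT. The wall proteins that build the hair rose as well, such as *EXPA7* with 14.6 FPKM in *upf3-1* and 3.201 FPKM in WT, *PRP3* with 44.3 FPKM in *upf3-1* and 8.82 FPKM in WT, and the leucine-rich repeat extensin *LRX1* with 7.26 FPKM in *upf3-1* and 1.01 FPKM in WT. Only *LRL3* missed the threshold, with 2.37 FPKM in *upf3-1* and 1.797 FPKM in WT.

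Other root genes had the same direction. The thalianol and marneral gene clusters make triterpenes in roots, and 6 of their 7 listed genes were up. *THAS*, the thalianol synthase, had 68.7 FPKM in *upf3-1* and 11.1 FPKM in WT, and *CYP708A2*, a P450 of the same cluster, had 132 FPKM in *upf3-1*, against 30.3 FPKM in WT. *MRN1*, the marneral synthase, was 32.3-fold higher, with 13.8 FPKM in *upf3-1* and 0.428 FPKM in WT. The Casparian strip is the lignin seal of the endodermis. All 6 measured genes of 7 listed were up, among them the scaffold protein gene *CASP1* with 43.7 FPKM in *upf3-1* and 16.4 FPKM in WT, the dirigent-like *ESB1* with 38.8 FPKM in *upf3-1* and 12.5 FPKM in WT, and *MYB36*, the factor that activates them, with 7.43 FPKM in *upf3-1* and 1.55 FPKM in WT.

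**Figure D4:**
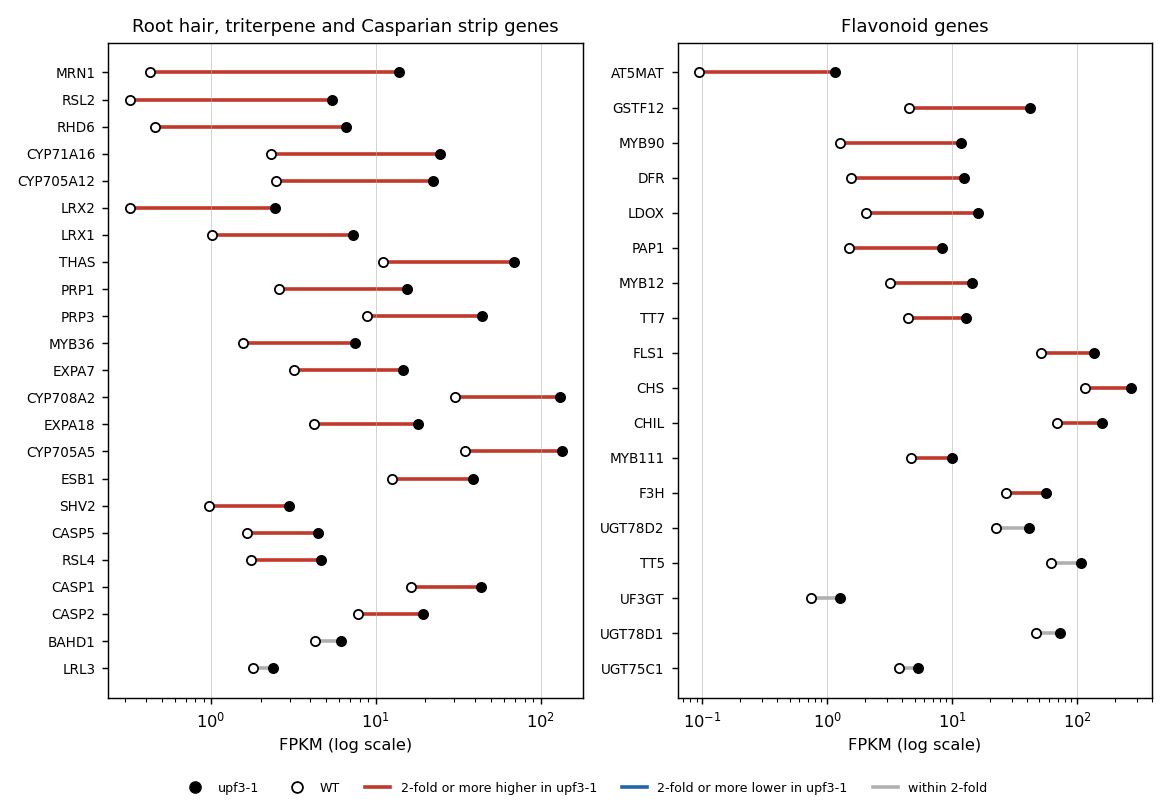
FPKM on a log scale of root genes (left) and flavonoid genes (right), with *upf3-1* as filled circles, WT as open circles, and 1 library each. Each gene drawn has the higher value in *upf3-1*. The bar is red where the difference is 2-fold or more, which holds for 10 of 11 root hair, 6 of 7 triterpene, and 13 of 18 flavonoid genes, and for each Casparian strip gene drawn.

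Cell wall genes accounted for many of the rises, and are read against the 13.7% up and 6.69% down over all genes. Of 56 class III peroxidases, secreted enzymes that cross-link wall polymers, 39 were up and 2 down (69.6% up), and their median level was 21.5 FPKM in *upf3-1* and 9.86 FPKM in WT. *PER15* was 43.1-fold higher, with 12.8 FPKM in *upf3-1* and 0.297 FPKM in WT, and *PER49* had 23.3 FPKM in *upf3-1*, against 1.44 FPKM in WT. Extensins, the hydroxyproline-rich glycoproteins of the wall, numbered 24, with 16 up and 1 down. *EXT3* was the most abundant of those named, with 1323 FPKM in *upf3-1* and 286 FPKM in WT. Of 97 pectin enzyme genes 33 were up and 6 down, of 41 xyloglucan enzyme genes 12 up and 4 down, and of 24 expansin genes 6 up and 1 down. Among these, the pectate lyase gene *RHS14* had 6.76 FPKM in *upf3-1* and 0.2405 FPKM in WT and the xyloglucan enzyme gene *XTH19* had 51.1 FPKM in *upf3-1* and 5.71 FPKM in WT. Arabinogalactan protein genes were split, with 12 of 44 up (27.3%) and 6 down (13.6%). *AGP30*, a root arabinogalactan protein gene, had 24.96 FPKM in *upf3-1* and 1.08 FPKM in WT, and *AGP2* had 273 FPKM in *upf3-1*, against 37.9 FPKM in WT.

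Several transporters for mineral nutrients were up, and *HAK5* was among the 15 strongest rises. *HAK5*, the high-affinity potassium transporter of roots, had 17.8 FPKM in *upf3-1* and 0.0812 FPKM in WT and was 219.6-fold higher, a ratio that rests on few fragments in WT. *NRT1.1*, a nitrate transporter and sensor, had 169 FPKM in *upf3-1*, against 50.3 FPKM in WT, and *NRT1.5*, which loads nitrate into the xylem, had 143 FPKM in *upf3-1*, against 19.8 FPKM in WT. The sulfate transporter *SULTR1;2* had 108 FPKM in *upf3-1* and 25.5 FPKM in WT, and *PHO1*, which loads phosphate into the xylem, had 64.3 FPKM in *upf3-1* and 20.02 FPKM in WT. *NIP5;1*, a channel for boric acid, was 6.25-fold higher, with 46.3 FPKM in *upf3-1* and 7.401 FPKM in WT. In the other direction, the nitrate reductase *NIA1* had 68.4 FPKM in *upf3-1* and 221 FPKM in WT, and the tonoplast aquaporin *TIP2;1* had 221 FPKM in *upf3-1* and 798 FPKM in WT. Over the lists, 7 of 23 phosphate and sulfate transporter genes were up (30.4%) and 1 down, with a median log2 ratio of 0.52. Of 14 nitrate and ammonium genes 4 were up (28.6%) and 1 down, against 13.7% up and 6.69% down over all genes. The nitrate and ammonium list did not rise as a whole, with 7 genes higher and 7 lower in *upf3-1* and a median of 0.01.

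Iron genes changed in both directions. When iron is short, 4 bHLH factors of subgroup Ib act with FIT to activate uptake in the root. Of 29 listed genes 25 were measured, with 7 up (28.0%) and 9 down (36.0%), against 13.7% up and 6.69% down over all genes. All 4 subgroup Ib genes fell. *bHLH38* had 3.25 FPKM in *upf3-1* and 16.7 FPKM in WT, *bHLH39* had 5.36 FPKM in *upf3-1* and 23.9 FPKM in WT, *bHLH100* had 6.45 FPKM in *upf3-1* and 29.5 FPKM in WT, and *bHLH101* had 0.899 FPKM in *upf3-1* and 13.5 FPKM in WT. The listed loci without a described product fell too, with 84.8 FPKM in *upf3-1* and 215 FPKM in WT for AT1G47400, 141 FPKM in *upf3-1* and 435 FPKM in WT for AT1G47395, and 107 FPKM in *upf3-1* and 399 FPKM in WT for AT2G30766. *OPT3*, a phloem transporter for iron, had 36.3 FPKM in *upf3-1*, against 89.8 FPKM in WT. *FIT* had the opposite direction, with 12.3 FPKM in *upf3-1* and 3.97 FPKM in WT. So did *F6′H1*, which makes coumarins that mobilise iron, with 42.4 FPKM in *upf3-1* and 13.02 FPKM in WT, the coumarin exporter gene *ABCG37* with 19.6 FPKM in *upf3-1* and 7.13 FPKM in WT, and the nicotianamine synthase *NAS1* with 177 FPKM in *upf3-1* and 45.3 FPKM in WT. The uptake genes themselves did not pass the threshold. The iron transporter *IRT1* had 17.9 FPKM in *upf3-1* and 22.3 FPKM in WT, and the reductase *FRO2* had 1.68 FPKM in *upf3-1* and 3.197 FPKM in WT. The ferritin *FER1* had 69.98 FPKM in *upf3-1* and 69.98 FPKM in WT.

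Most flavonoid genes were up. Flavonoids are made from chalcone by a short chain of enzymes, and MYB factors activate its early and late steps. Of 23 listed genes 18 were measured, and 13 were up and 0 down. Of the early enzymes, *CHS*, chalcone synthase, had 269 FPKM in *upf3-1* and 117 FPKM in WT, and *FLS1*, flavonol synthase, had 137 FPKM in *upf3-1* and 51.1 FPKM in WT. The late anthocyanin enzymes differed among themselves. The glycosyltransferase gene *UGT75C1* missed the threshold, with 5.29 FPKM in *upf3-1* and 3.78 FPKM in WT, whereas *DFR* had 12.5 FPKM in *upf3-1* and 1.56 FPKM in WT, *LDOX* had 16.2 FPKM in *upf3-1* and 2.04 FPKM in WT, and the transferase *GSTF12* had 41.9 FPKM in *upf3-1* and 4.52 FPKM in WT. The activator *PAP1* had 8.37 FPKM in *upf3-1* and 1.49 FPKM in WT, and *MYB90* had 11.7 FPKM in *upf3-1* and 1.27 FPKM in WT. *MYB12*, which activates flavonol synthesis, had 14.5 FPKM in *upf3-1*, against 3.16 FPKM in WT. *MYBL2*, an inhibitor of anthocyanin synthesis, fell, with 2.68 FPKM in *upf3-1* and 21.5 FPKM in WT. The G-box core CACGTG was found in 7 of the 18 promoters (38.9%), against 7.34% of all.

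Genes that protect against drought and attack rose unevenly. Of 27 genes for LEA proteins and dehydrins, which protect cells that lose water, 18 were up and 2 down. AT3G02480 had 38.9 FPKM in *upf3-1* and 1.98 FPKM in WT, and AT5G53820 had 14.1 FPKM in *upf3-1* and 0.257 FPKM in WT. *RAB18*, an abscisic acid marker, was one of those that fell, with 1.54 FPKM in *upf3-1* and 13.5 FPKM in WT. Of 37 genes for pathogenesis-related proteins, chitinases, and thaumatins, 18 were up and 4 down. *CHIA*, an acidic chitinase gene, had 44.5 FPKM in *upf3-1* and 1.52 FPKM in WT. Of 23 defensin genes 9 were down and 3 up, and among those up *PDF2.1* had 69.7 FPKM in *upf3-1* and 4.58 FPKM in WT. NLR genes encode intracellular immune receptors. Of 90 measured, 19 were up (21.1%) and 4 down, and their median log2 ratio was 0.01. Over all genes 13.7% were up, and in the abundance class of the NLR genes 570 of 3769 were up. *RPP4*, one of those that fell, had 8.801 FPKM in *upf3-1* and 23.5 FPKM in WT.

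Glutaredoxin genes were mainly lower. Of 33 genes, 12 were down (36.4%) and 1 up. The members with the largest differences were *GRXS3* with 4.18 FPKM in *upf3-1* and 43.3 FPKM in WT, *GRXS5* with 5.36 FPKM in *upf3-1* and 31.7 FPKM in WT, *GRXS7* with 1.22 FPKM in *upf3-1* and 10.5 FPKM in WT, and *GRXS8* with 1.38 FPKM in *upf3-1* and 13.99 FPKM in WT. These CC-type genes respond to nitrate, lie side by side on chromosome 4, and are near-identical, so the split of fragments between them is uncertain.

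Transcription factor families are read against the 13.7% up and 6.69% down over all genes. Of 64 NAC genes 24 were up (37.5%) and 6 down (9.38%), of 57 WRKY genes 16 up (28.1%) and 4 down (7.02%), and of 121 MYB genes 35 up (28.9%) and 4 down (3.31%). *ANAC087*, which acts in programmed cell death of the root cap, had 23.2 FPKM in *upf3-1* and 3.11 FPKM in WT. *WRKY75*, known from phosphate starvation and senescence, had 11.5 FPKM in *upf3-1*, against 2.14 FPKM in WT, and *WRKY43* had 8.095 FPKM in *upf3-1*, against 0.285 FPKM in WT. *MYB45* was 17.97-fold higher, with 26.3 FPKM in *upf3-1* and 1.46 FPKM in WT. *RAP2.11*, a regulator of the response to low potassium that acts on *HAK5*, had 9.73 FPKM in *upf3-1* and 0.522 FPKM in WT. Of 87 bHLH genes 21 were up and 7 down, and of 83 ERF and AP2 genes 20 up (24.1%) and 13 down (15.7%), both above the shares over all genes.

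Enzymes of specialised metabolism are given in the same way. Of 130 cytochrome P450 genes 43 were up (33.1%) and 14 down (10.8%), of 45 glutathione transferase genes 13 up (28.9%) and 2 down (4.44%), and of 64 UDP-glycosyltransferase genes 18 up (28.1%) and 10 down (15.6%), against 13.7% up and 6.69% down over all genes. *CYP702A5* had 16.3 FPKM in *upf3-1* and 0.839 FPKM in WT, and *GSTU25* had 50.7 FPKM in *upf3-1* and 5.38 FPKM in WT. *MAM-L*, a methylthioalkylmalate synthase of glucosinolate synthesis, had 37.96 FPKM in *upf3-1*, against 2.61 FPKM in WT. *NIC3*, a nicotinamidase of the NAD salvage pathway, was 16.5-fold higher, with 35.5 FPKM in *upf3-1* and 2.15 FPKM in WT.

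Of the growth and hormone groups, mitotic genes stood out. Cyclins A and B and the kinases CDKB drive the G2 to M transition, and 9 of 20 were up (45.0%) and 1 down (5.00%). Over all genes 13.7% were up and 6.69% down, and in the abundance class of the mitotic genes 570 of 3769 were up. *CYCB2;2* had 10.6 FPKM in *upf3-1* and 3.597 FPKM in WT, and *CYCA2;2* had 6.07 FPKM in *upf3-1* and 1.17 FPKM in WT. Histone genes did not rise with the mitotic genes, with 0 of 38 up and 1 down. They are far more abundant, and their median log2 ratio of −0.40 was close to the −0.32 of their abundance class. In that class 172 of 3773 genes were up. SAUR genes, early auxin targets, were split, with 14 of 53 up (26.4%) and 12 down (22.6%). Of 25 Aux/IAA genes 2 were up, with 10.03 FPKM in *upf3-1* and 0.708 FPKM in WT for *IAA31*, and 2 were down. The gibberellin-regulated *GASA5* was 12.5-fold higher, with 44.1 FPKM in *upf3-1* and 3.54 FPKM in WT. Of 32 jasmonate genes 2 were up and 4 down, 22 had the lower value in *upf3-1*, and their median log2 ratio was −0.32, against −0.01 in their abundance class.

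The study asked how NMD affects flowering time, and 22 of 24 listed flowering genes were measured. Of these 9 were down (40.9%) and 5 up (22.7%), against 6.69% down and 13.7% up over all genes. The floral repressor *FLC* had 30.1 FPKM in *upf3-1* and 12.3 FPKM in WT and was 2.44-fold higher. Its relative *MAF3* had 48.2 FPKM in *upf3-1*, against 17.04 FPKM in WT, whereas *MAF4* had 5.77 FPKM in *upf3-1*, against 12.5 FPKM in WT and *MAF5* had 2.42 FPKM in *upf3-1*, against 7.91 FPKM in WT. These MAF genes lie in tandem and are close in sequence. *ATC*, a relative of *TFL1* that delays flowering, had 47.9 FPKM in *upf3-1* and 20.7 FPKM in WT, and *BBX19*, a B-box protein that holds back CONSTANS, had 10.8 FPKM in *upf3-1* and 3.21 FPKM in WT. The floral integrator *SOC1* was 4.58-fold lower, with 6.43 FPKM in *upf3-1* and 29.5 FPKM in WT. *FT*, which encodes the mobile flowering signal, had 2.64 FPKM in *upf3-1*, against 6.96 FPKM in WT, and *CO*, its activator, had 1.02 FPKM in *upf3-1*, against 2.104 FPKM in WT. Of other promoters of flowering, the MADS gene *AGL24* had 3.38 FPKM in *upf3-1* and 9.79 FPKM in WT, and *SPL4* had 0.911 FPKM in *upf3-1* and 2.96 FPKM in WT. *TEM1* represses *FT* and was lower, with 12.6 FPKM in *upf3-1* and 39.4 FPKM in WT. *FD*, which encodes the partner of FT, was higher, with 3.17 FPKM in *upf3-1* and 1.04 FPKM in WT. *SVP* differed little, with 54.4 FPKM in *upf3-1* and 49.4 FPKM in WT.

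**Figure D5:**
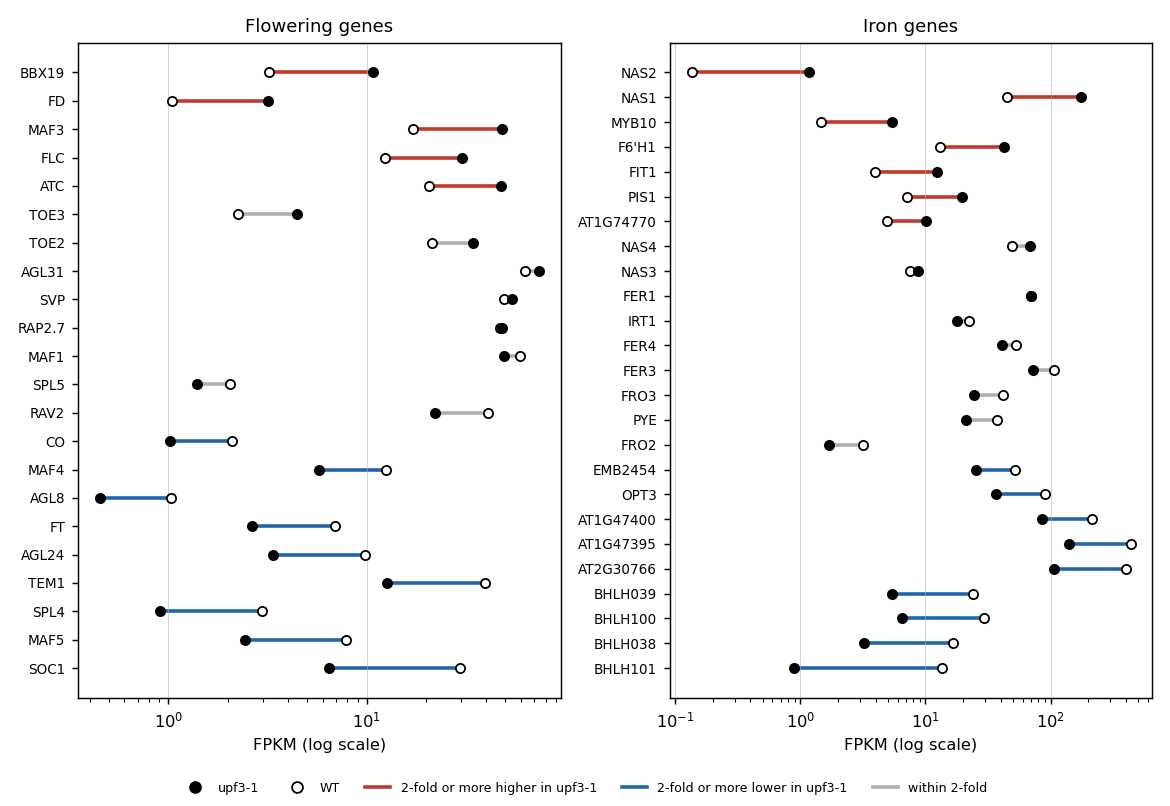
FPKM on a log scale of the 22 measured flowering genes (left) and 25 measured iron genes (right), with *upf3-1* as filled circles, WT as open circles, and 1 library each. Red bars mark 5 flowering and 7 iron genes that were 2-fold or more higher in *upf3-1*, and blue bars 9 of each that were 2-fold or more lower. *SOC1* and *bHLH101* are at the foot of their panels.

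Clock genes were mostly level at ZT16. Of 20 measured, 3 were up and 1 down. *LHY*, a morning gene that is near its daily low at dusk, had 8.44 FPKM in *upf3-1* and 1.901 FPKM in WT, and its relative *CCA1* had 2.85 FPKM in *upf3-1* and 2.26 FPKM in WT. *RVE8*, an activator of evening genes, had 17.8 FPKM in *upf3-1*, against 6.02 FPKM in WT. The photoreceptor gene *FKF1* fell, with 3.71 FPKM in *upf3-1* and 10.2 FPKM in WT. *TOC1*, an evening gene, had 55.6 FPKM in *upf3-1* and 68.9 FPKM in WT.

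Genes used as reporters of NMD had higher values in *upf3-1*. An initiation factor eIF5 gene, AT1G36730, had 211 FPKM in *upf3-1* and 91.4 FPKM in WT, and the kinase gene AT5G45430 had 223 FPKM in *upf3-1*, against 89.04 FPKM in WT. *TFIIIA* missed the threshold, with 52.8 FPKM in *upf3-1* and 37.7 FPKM in WT. Of 9 measured genes with a conserved upstream open reading frame, 3 were up (33.3%) and 0 down. Over all genes 13.7% were up and 6.69% down. The 3 up-regulated members were *SAC51*, a bHLH factor, with 171 FPKM in *upf3-1* and 73.3 FPKM in WT, *HSFB1*, a heat stress factor, with 80.99 FPKM in *upf3-1* and 22.2 FPKM in WT, and *NMT1*, an enzyme of phosphocholine synthesis, with 159.9 FPKM in *upf3-1* and 70.7 FPKM in WT. *VTC2*, of ascorbate synthesis, had 223 FPKM in *upf3-1*, against 238 FPKM in WT. Of the 12 genes of NMD and the exon junction complex, 1 was up (8.33%) and 1 down (8.33%), and the gene down was *UPF3*. AT2G39260, annotated as an RNA-binding protein gene, had 18.6 FPKM in *upf3-1* and 17.7 FPKM in WT, and *Y14*, a core junction protein gene, had 55.3 FPKM in *upf3-1* and 79.1 FPKM in WT.

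In the longest coding model of each gene, features that NMD may recognise were no more frequent among the up-regulated genes than among the rest. Features were read from the RefSeq model with the longest coding sequence, which 18382 of the genes have. An exon junction lying over 50 nt beyond the stop was found in 40 of 2423 up-regulated genes (1.65%), in 14 of 1212 down-regulated genes (1.16%), and in 268 of 14747 others (1.82%). A 3′-UTR of at least 350 nt was found in 17.1% of the up-regulated, 22.8% of the down-regulated, and 25.4% of the other genes. Upstream reading frames of 35 codons or longer were found in 16.3% of the up-regulated, 17.5% of the down-regulated, and 17.0% of the other genes. In the lower abundance classes the shares with and without the junction were also close. In the lowest abundance class 33.3% of 57 genes with the junction and 33.9% of 3517 genes without it were up, and in the next class 14.5% of 76 and 14.6% of 3591 were up. These counts describe annotated models and not the isoforms that were transcribed. Choosing the longest coding sequence also passes over annotated isoforms of a gene with an earlier stop. The counts therefore cannot show whether such isoforms were more frequent among the up-regulated genes.

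Loci that do not encode proteins were called up more often than the 13.7% over all genes. Of 61 pseudogenes 25 were up (41.0%) and 4 down, of 172 genes for other RNA 50 were up (29.1%) and 14 down, and of 34 potential natural antisense genes 11 were up and 4 down. AT2G05441, a pseudogene, had 30.98 FPKM in *upf3-1* and 2.196 FPKM in WT, and the RNA gene AT3G26612 had 59.2 FPKM in *upf3-1*, against 9.57 FPKM in WT. Pseudogenes are of low level, with a median over both libraries of 2.67 FPKM, and the lowest abundance class as a whole held 1292 up-regulated genes of 3776. Genes for other RNA and antisense genes had medians of 9.77 FPKM and 6.18 FPKM. Their abundance class, the second lowest, held 570 up-regulated genes of 3769. Whether level alone gives these shares was not tested. Of 66 transposable element genes 15 were up and 9 down. *JMJ14*, a histone demethylase gene, was 25.6-fold higher with 363 FPKM in *upf3-1* and 14.2 FPKM in WT, but it overlaps AT4G20410, and the sources used here do not say whether fragments were counted by strand. In the other pair it had 12.5 FPKM in *upf1-5 upf3-1* and 13.5 FPKM in *upf1-5*. Among the other strongest changes, *MYB45*, AT1G53542, *ASN1*, *THA1*, AT3G15450, AT5G66053, and AT2G40205 also overlap another annotated gene. The uncharacterized AT5G66815 was 115-fold higher, with 41.2 FPKM in *upf3-1* and 0.359 FPKM in WT.

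In the pair that carries *upf1-5* in both libraries, fewer genes changed. Of 18559 genes measured in both pairs, 1440 were up (7.76%) and 681 down (3.67%) in *upf1-5 upf3-1* over *upf1-5*. Up in both pairs were 915 genes, which is 37.9% of the genes up in *upf3-1* over WT that were measured in both and 63.5% of those up in *upf1-5 upf3-1* over *upf1-5*. Down in both were 266 genes, 22.1% of the genes down in *upf3-1* over WT and 39.1% of those down in the other pair. Opposite calls were made for 67 genes up in *upf3-1* over WT and 61 genes down in it. The genes up in *upf3-1* over WT had a median log2 ratio of 0.72 in the other pair, and the genes down in it −0.57, against −0.01 over all genes there.

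Several groups had the same direction in both pairs. Root hair genes had 10 of 11 up in either pair, with a median log2 ratio of 1.77 in *upf1-5 upf3-1* over *upf1-5*. *RHD6* had 10.3 FPKM in *upf1-5 upf3-1* and 2.11 FPKM in *upf1-5*. *HAK5* had 35.2 FPKM in *upf1-5 upf3-1* and 1.19 FPKM in *upf1-5*, and *CHIA* had 88.2 FPKM in *upf1-5 upf3-1* and 13.2 FPKM in *upf1-5*. Ribosomal protein genes had a median of −0.58 there, photosystem genes −0.72, and Calvin cycle genes −0.90, and no class median was computed for that pair. Of 32 glutaredoxin genes 14 were down. Of the 4 Ib bHLH iron genes 3 were down there as well, for example *bHLH38* with 20.6 FPKM in *upf1-5 upf3-1* and 48.7 FPKM in *upf1-5*. *IRT1* had 1.75 FPKM in *upf1-5 upf3-1* and 51.5 FPKM in *upf1-5*, a larger gap than between *upf3-1* and WT. *SOC1* had 4.67 FPKM in *upf1-5 upf3-1* and 17.2 FPKM in *upf1-5*, *FT* had 1.36 FPKM in *upf1-5 upf3-1* and 6.34 FPKM in *upf1-5*, and *FLC* had 63.1 FPKM in *upf1-5 upf3-1* and 35.8 FPKM in *upf1-5*.

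Other groups had a smaller median difference in the other pair. None of the 18 flavonoid genes passed the threshold there, in either direction, and their median log2 ratio was −0.14. *CHS* had 115 FPKM in *upf1-5 upf3-1* and 204 FPKM in *upf1-5*, and *DFR* had 10.7 FPKM in *upf1-5 upf3-1* and 6.83 FPKM in *upf1-5*. The 20 mitotic genes had 0 up and 0 down, with a median of 0.02. Of 31 starvation genes 10 were down and 1 up there, against 3.67% down and 7.76% up over all genes, and the median was −0.29. *ASN1* had 0.968 FPKM in *upf1-5 upf3-1* and 6.202 FPKM in *upf1-5*, and *MIOX2* had 11.1 FPKM in *upf1-5 upf3-1* and 92.5 FPKM in *upf1-5*, whereas AT2G33830 had 83.2 FPKM in *upf1-5 upf3-1* and 105 FPKM in *upf1-5*. The NMD reporter AT1G36730 had 215 FPKM in *upf1-5 upf3-1* and 182 FPKM in *upf1-5*, in a background where *UPF1* is already low, with 8.27 FPKM in *upf1-5 upf3-1* and 3.18 FPKM in *upf1-5*. With 1 library in each of the 4 genotypes, these differences between the pairs could not be tested.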

How the data were processed

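The authors mapped the reads to TAIR10 with TopHat 2.0.6 and Bowtie 2, assembled transcripts with Cufflinks 2.2.1, and compared the 4 libraries in 6 pairs with Cuffdiff 2.2.1. The deposited table gives the FPKM summed over both libraries of a pair, as the authors normalized it. The deposited fold is the ratio of the higher to the lower FPKM, with a direction. It also holds a q-value of the authors' comparison, which was not used. The labels do not give read depth, which is unknown here, and 0 columns of single samples were left unused.

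Each FPKM was recovered as the sum divided by 1 plus the fold for the lower library and the rest for the higher. The recovered values of a library differed by at most 1% between pairs for 100% of genes at 1 FPKM or more. Recovery was tested on simulated data. Genes that reached 1 FPKM in either library were called at 2-fold, with no pseudocount. Groups were made from the gene descriptions or from lists. Members and lists were chosen with earlier results of these data known, so a list's count is no independent evidence. Named were *UPF3*, *UPF1*, 2 reference genes, the 15 largest rises and falls with a pseudocount of 1, up to 4 genes per described group, all genes of listed groups, and neighbours of *UPF3* within 25 kb, and AT2G12190, *PSBM*, and *PCMP-E40* were added after their values were seen. The library named NMD2 in the table was taken as *upf1-5 upf3-1*, since the other names match the other genotypes. Genes with an FPKM of 0 in a library appear to be left out of its pairs. Gene models, promoters, and positions come from RefSeq TAIR10.1, matched by locus tag. The alternatives were other FPKM filters, folds of 1.5 and 4, pseudocounts of 0.1 and 1, 2 rescalings, and values averaged over pairs. Python 3.11.15, NumPy 2.4.6, pandas 2.3.3, and matplotlib 3.10.9 were used. Some items are not reported here.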

Additional observations from a re-analysis of the deposited data

Results flagged for a closer look

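Of the 408 named genes, 197 were up and 100 down in *upf3-1* over WT. Of the named genes, 12 passed 2-fold in opposite directions in *upf3-1* over WT and in *upf1-5 upf3-1* over *upf1-5*. Over all genes measured in both pairs, 67 of 2412 up-regulated and 61 of 1204 down-regulated genes had the opposite call, so such calls are not particular to the named genes. The difference between the pairs was not tested, since each genotype has 1 library. Of these 12 genes, 9 were higher in *upf3-1* than in WT and lower in the double mutant than in *upf1-5*. The log2 ratios of *upf3-1* over WT and of *upf1-5 upf3-1* over *upf1-5* were 3.64 and −3.06 for *GASA5*, a gibberellin-regulated gene, 4.53 and −1.93 for *AGP30*, 2.92 and −1.42 for *GSTF14*, 3.32 and −1.12 for *XTH21*, and 2.17 and −2.48 for *UGT84A1*. They were 2.73 and −1.24 for the lipid transfer protein gene AT4G12545, 4.08 and −1.35 for the uncharacterized AT1G53542, 3.82 and −2.33 for the pseudogene AT2G05441, and 2.00 and −2.56 for the antisense gene AT1G15002. The other 3 were lower in *upf3-1* and higher in the double mutant, with −1.34 and 3.77 for *DIN2*, a beta-glucosidase gene, −1.02 and 1.68 for the linker histone *HIS1-3*, and −3.90 and 1.48 for AT1G19530. *HIS1-3* lies close to the 2-fold threshold in *upf3-1*, and *DIN2* is under 3 FPKM in both libraries of the main pair.

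Loci assembled by Cufflinks without an annotated gene were left out of the counts. Of 926 such loci at 1 FPKM or more, 316 were up (34.1%) and 109 down (11.8%) in *upf3-1*, against 13.7% and 6.69% of annotated genes.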

How the results depend on the processing

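No paired analysis was possible because each genotype has 1 library. For the same reason no replicate could be left out. The number of genes up moved by over 1.5 times at a minimum of 5 FPKM in either library (1571), at a fold of 1.5 (4045), and at a fold of 4 (910), and the number down at a fold of 1.5 (3359) and of 4 (190). The share of changed genes that were up was set against a binomial (Wilson) counting interval. That interval treats genes as independent and does not measure spread between replicates, so it serves only as a mark of size. The share moved outside it to 62.8% with 1 FPKM in both libraries, 62.2% with 5 FPKM, 54.6% at a fold of 1.5, and 82.7% at a fold of 4. It also did so with 69.2% after rescaling to a median ratio of 1, and 72.6% after rescaling to the same 75th percentile. Of the 408 named genes 297 passed a fold of 2 and 187 a fold of 4. Of 65 function groups 47 had more genes up than down, and 43 to 52 did under the 10 alternatives. The median log2 ratio changed sign with rescaling for F-box, receptor-like protein, and pentatricopeptide repeat genes, all of which lay within 0.06 of 0, and 0 called named genes changed direction. The rescaling to the 75th percentile moves each log2 ratio by 0.08. Group medians changed sign for 5 groups at 5 FPKM, 2 at 1 FPKM in both libraries, and 2 with no filter, and they moved by 0.2 or more for 13, 10, and 3 groups under these filters and for 6 with a pseudocount of 1. At 5 FPKM the median log2 ratio of NLR immune receptor genes was −0.20 and the median log2 ratio of leucine-rich repeat receptor kinase genes was −0.07, against 0.01 and 0.14 at 1 FPKM. A pseudocount of 1 moved the ratio of 87 named genes by over 1.5 times. Values near 1 FPKM are limited by depth, which is unknown.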

Other observations

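Groups not described above had these values, to be read against 13.7% up and 6.69% down over all genes. Of 227 F-box genes, which choose proteins for degradation, 15 were up (6.61%) and 18 down (7.93%) in *upf3-1*. Of 308 genes for pentatricopeptide repeat proteins, which process RNA in organelles, 18 were up (5.84%) and 19 down (6.17%). Their abundance class is the lowest, where 1292 of 3776 genes were up and 387 down. One pentatricopeptide repeat gene, *PCMP-E40*, had 2.05 FPKM in *upf3-1* and 0.000232 FPKM in WT, a value too low to give a fold. Of 37 heat shock protein genes 5 were up (13.5%) and 3 down (8.11%), close to the shares over all genes. The chaperone gene *HSC70-1* had 488 FPKM in *upf3-1* and 1029 FPKM in WT. Lipid transfer protein genes were split, with 18 of 51 up (35.3%) and 12 down (23.5%). *LTP8* had 157 FPKM in *upf3-1* and 20.1 FPKM in WT, and AT1G73890 had 0.877 FPKM in *upf3-1* and 14.9 FPKM in WT. Of 104 leucine-rich repeat receptor kinase genes 26 were up and 1 down, and AT1G51830 had 56.5 FPKM in *upf3-1* and 11.9 FPKM in WT. Of the 8 measured mitochondrion-encoded genes 5 were up and 1 down, for example *COX2* with 4.58 FPKM in *upf3-1* and 1.51 FPKM in WT. These also fall in the lowest abundance class, and the capture of their transcripts is uncertain, as for the chloroplast-encoded genes.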
